A study of Mus musculus with 4 samples.

Results

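Chemokine ligand genes encode the small secreted proteins that steer leukocytes through tissue. They were taken from an RNA sequencing study of mouse lung tumours as every listed gene whose symbol is Ccl, Cxcl, Xcl or Cx3cl followed by a number and at most 1 letter. This rule gave 39 of the 24391 genes listed, and 27 of the 39 passed the count filter that left 16001 genes for testing. The study held 4 samples of CD45-depleted lung tumour. In 2 of them the tumours carried K-Ras LSL-G12D, a mutant K-Ras allele that stays silent until Cre removes its stop cassette (labelled K-Ras). In the other 2 the tumours carried that allele together with floxed Mll4 (labelled K-Ras Mll4-/-), so the activated K-Ras allele was common to both groups. The age, strain and sex of the mice, and the promoter or route that delivered Cre, are not given in the sources used here. The labels number the samples 1 and 2 in each group and do not say whether they came from separate mice, so the p-values measure only the spread between these samples.

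Chemokines fall into the CC, CXC, XC and CX3C families by the spacing of the cysteines near their start, and they act through G protein-coupled receptors on leukocytes. CXC ligands with a glutamate-leucine-arginine motif draw neutrophils, mainly through Cxcr2. The interferon-induced CXC ligands draw activated T cells through Cxcr3, and many CC ligands draw monocytes, eosinophils or T cells. In the lung, epithelial cells, stromal cells, endothelium and alveolar macrophages each make different members. Inflammatory members are classic targets of NF-kappaB, while others are made steadily. Depletion of CD45, the common leukocyte antigen, removes many of the cells that make and receive these signals.

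The gene-assigned reads numbered 26683033 to 36677987 per sample, and 3 reads corresponded to 0.0818 to 0.112 CPM, the read count scaled to a common library size. This floor covers counting error only. Kmt2d, the current symbol of Mll4, was at 395 and 526 CPM in K-Ras samples 1 and 2 and at 367 and 317 CPM in K-Ras Mll4-/- samples 1 and 2 (log2 fold change -0.43, edgeR quasi-likelihood adjusted p = 0.302). A floxed exon cannot be read from a whole-gene count, so the deletion of Mll4 rests on the labels. Ptprc, the gene of CD45, was detected in all 4 samples, at 274 and 143 CPM in K-Ras and 269 and 171 CPM in K-Ras Mll4-/- tumours. Transcripts of alveolar type 2 cells were abundant, the 6 markers summing to 14052 to 23927 CPM per sample. The summed alveolar macrophage markers, most of them Chil3, were highest in K-Ras sample 1 and next highest in K-Ras Mll4-/- sample 1. K-Ras sample 2 stood apart in airway markers. The marker values are given beside the results they move with.

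Promoter sequences were examined for the neutrophil-attracting CXC genes, because Cxcl1, Cxcl2, Cxcl3 and Cxcl15 are neighbours on chromosome 5 and yet had different levels and patterns. Cxcl5, also on chromosome 5, had no promoter among those searched and was not examined. The sequences are from RefSeq (GRCm38.p6) and cover the 250 bases before the annotated start, printed 5′ to 3′ on the gene's strand. Capitals mark matches to the NF-kappaB consensus and, in Cxcl10, also a match to the core of the interferon-stimulated response element, searched as GAAA, any 2 bases and GAAA. Cxcl10 is shown as an interferon-induced member. The windows are chr5:90890995-90891244 on the plus strand for Cxcl1, chr5:90903649-90903898 on the plus strand for Cxcl2, chr5:90785851-90786100 on the plus strand for Cxcl3, chr5:90794284-90794533 on the plus strand for Cxcl15 and chr5:92348890-92349139 on the minus strand for Cxcl10.
Cxcl1: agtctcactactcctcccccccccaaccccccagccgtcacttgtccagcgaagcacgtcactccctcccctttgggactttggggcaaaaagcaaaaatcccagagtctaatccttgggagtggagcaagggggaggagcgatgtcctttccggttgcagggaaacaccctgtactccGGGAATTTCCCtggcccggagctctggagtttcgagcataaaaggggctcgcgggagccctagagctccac
Cxcl2: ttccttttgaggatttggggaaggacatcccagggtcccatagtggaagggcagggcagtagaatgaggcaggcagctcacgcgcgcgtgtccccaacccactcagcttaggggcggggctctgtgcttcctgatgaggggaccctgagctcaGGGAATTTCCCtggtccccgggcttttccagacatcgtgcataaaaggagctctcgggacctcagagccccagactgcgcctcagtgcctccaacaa
Cxcl3: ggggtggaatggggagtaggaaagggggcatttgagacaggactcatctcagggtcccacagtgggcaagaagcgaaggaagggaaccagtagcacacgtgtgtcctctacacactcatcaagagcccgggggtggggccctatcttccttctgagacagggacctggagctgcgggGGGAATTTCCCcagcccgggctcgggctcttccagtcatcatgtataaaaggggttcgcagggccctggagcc
Cxcl15: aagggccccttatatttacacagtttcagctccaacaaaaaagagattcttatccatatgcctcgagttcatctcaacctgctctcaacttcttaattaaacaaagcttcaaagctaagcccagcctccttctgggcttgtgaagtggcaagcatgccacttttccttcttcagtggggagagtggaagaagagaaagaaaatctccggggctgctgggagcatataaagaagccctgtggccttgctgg
Cxcl10: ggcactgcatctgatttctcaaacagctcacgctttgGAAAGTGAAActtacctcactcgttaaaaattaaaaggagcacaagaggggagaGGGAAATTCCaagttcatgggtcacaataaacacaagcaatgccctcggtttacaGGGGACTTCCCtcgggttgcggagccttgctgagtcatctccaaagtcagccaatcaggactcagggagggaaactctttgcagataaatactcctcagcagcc

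Cxcl1, Cxcl2 and Cxcl3 each held the same unbroken run of 11 bases, GGGAATTTCCC, which was in 0.0426% of the 32851 RefSeq promoters of 300 bases (250 before to 50 after the start). That run was picked as the longest with the NF-kappaB consensus that these 3 promoters share, so its presence in all 3 follows from the choice. The first base of that run lay at -71 in Cxcl1, -97 in Cxcl2 and -73 in Cxcl3. Cxcl15 held no match to the NF-kappaB consensus in its window, and a TATAAA box began at -27. Cxcl3 also held a TATAAA box, which began at -30. The Cxcl10 window held the response element core at -213 and NF-kappaB matches from -159 and -104, the last of them overlapping a second match shifted by 1 base. Of the 27 member genes with a promoter among those searched, 8 held the NF-kappaB consensus on either strand, against 8.46% of all promoters. The response element core was in 3 of them, against 3.44%. These 27 are not the 27 members that passed the count filter. Of the latter, Ccl2, Ccl4, Ccl5, Ccl11, Cxcl5, Cxcl16 and Cxcl17 had no promoter among those searched. The genes searched included Ccl8, Ccl12, Ccl19, Ccl21a, Ccl21b, Ccl27b and Ccl28, which did not pass. The number of member genes counts a gene with several annotated starts once, and a match is a description of letters, not of binding.

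No chemokine ligand gene was called between the groups. The edgeR quasi-likelihood test gave an adjusted p under 0.05 for 0 of 27 members, against 0.0375% of all genes tested. An unadjusted p under 0.05 was reached by 3 members, Ccl2, Ccl4 and Cxcl14, all lower in K-Ras Mll4-/- tumours, and this share lay below the 21.8% of all genes. DESeq2 called 2 members, Ccl2 and Cxcl14, against 10.0% of all genes, and the edgeR likelihood ratio test called the same 2, against 9.39%. The median log2 fold change of the 27 members was -0.48, against -0.01 for all genes tested. Over the same 27 members the median was -0.14 without K-Ras sample 1 and -0.73 without K-Ras sample 2. Without K-Ras sample 2 the count filter also let in Ccl7, and the median over the 28 members was -0.86.

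Counted by sample, 8 members had both K-Ras Mll4-/- samples below both K-Ras samples, where the share over all genes was 28.5%, and 4 had both above, where that share was 29.9%. The first share is close to the background and the second is below it. With a log2 fold change of at most -1 as well there were 5 members, Ccl2, Ccl3, Cxcl5, Cxcl13 and Cxcl14, against 7.56% of all genes. With a log2 fold change of at least 1 there were 2, Cxcl9 and Ccl20, against 4.81%. Cxcl13 and Ccl20 passed the count filter through the group in which they were higher, which favours the direction they are counted in. K-Ras sample 1 had the highest value of the 4 samples for 15 of the 27 members, against 24.7% of all genes. Leaving it out turned the sign of the fold change of 10 members, against 13.1% of all genes, while leaving out K-Ras sample 2 turned none of the 27.

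**Figure D1:**
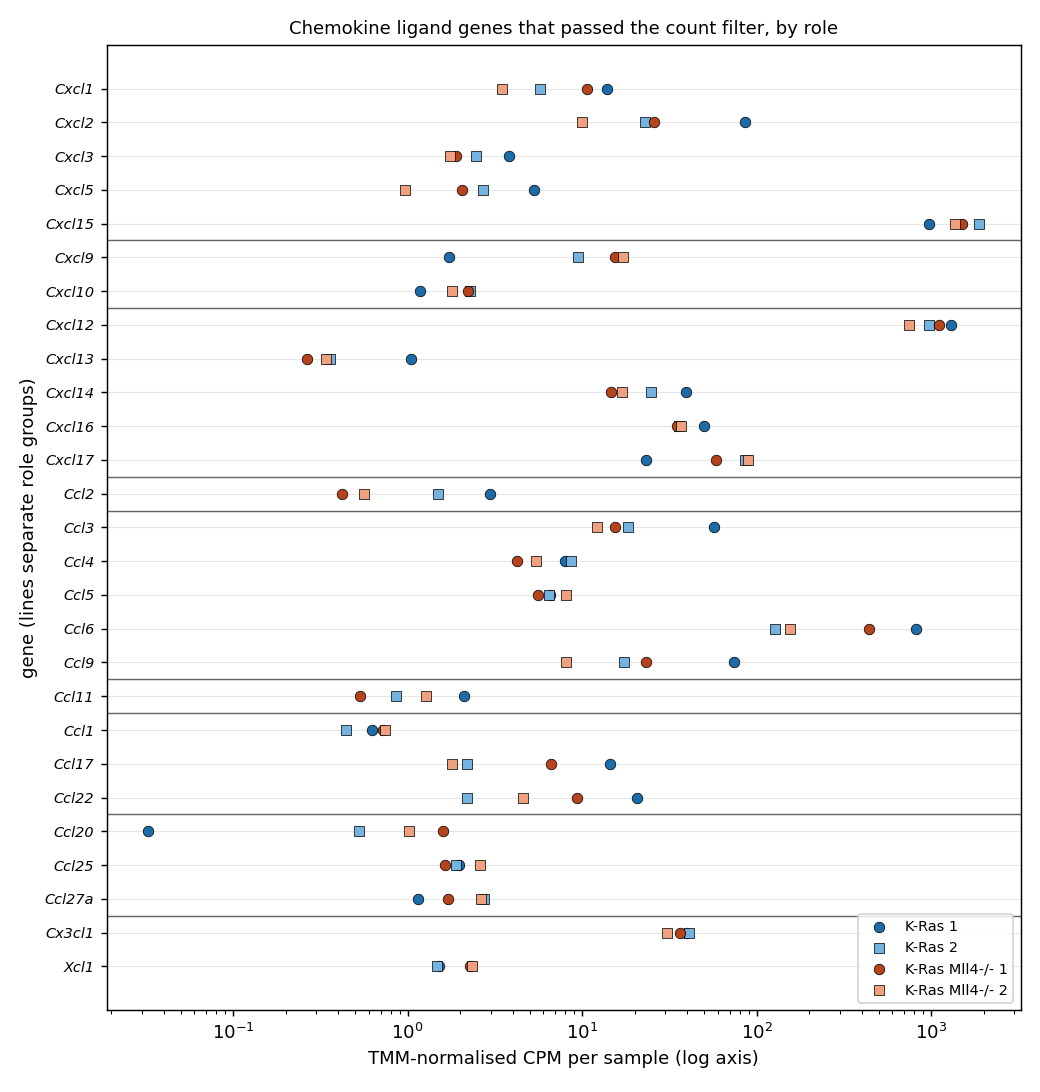
TMM-normalised CPM on a log axis for the 27 chemokine ligand genes that passed the count filter, 1 point per sample, with lines between role groups. K-Ras sample 1 (dark blue circles) is the highest point for 15 genes. CPM is not adjusted for transcript length, so points are compared within a gene.

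**Figure D2:**
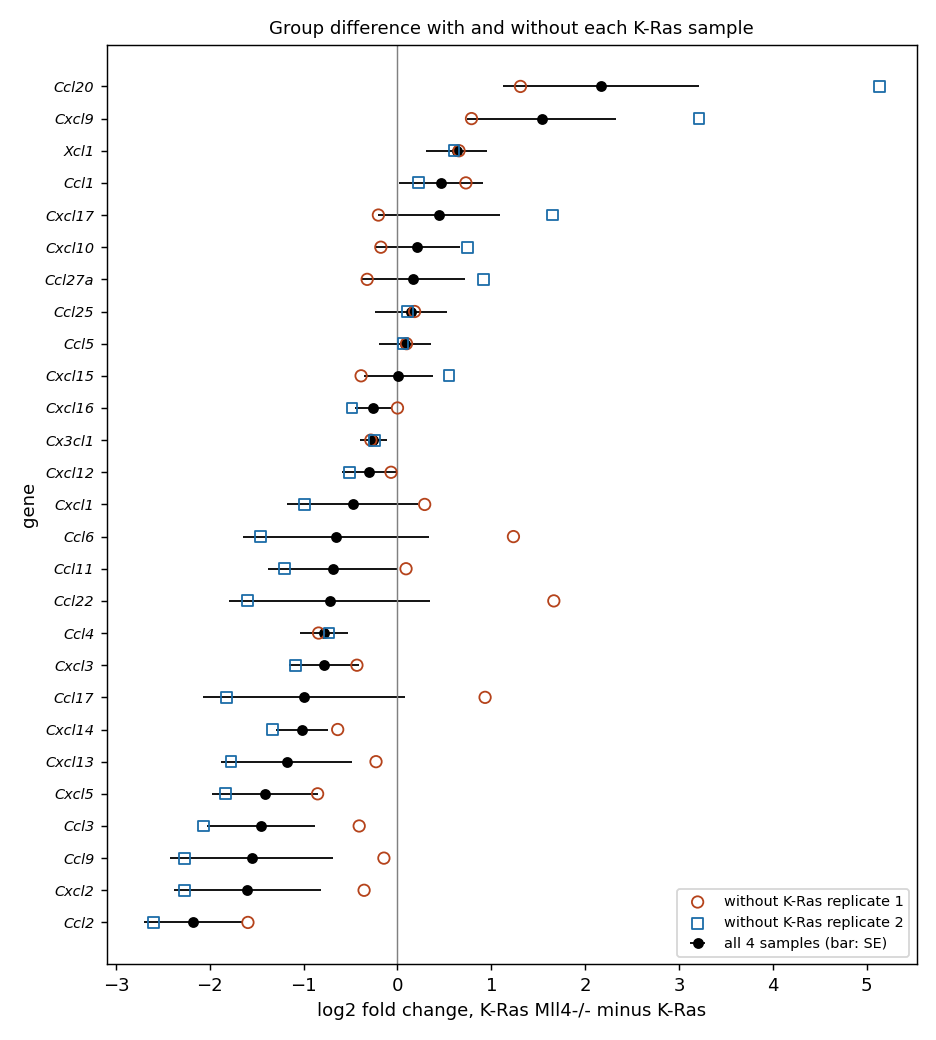
Log2 fold change (K-Ras Mll4-/- minus K-Ras) of the same 27 genes with its SE as a bar, and the value without K-Ras replicate 1 (open circles) or without K-Ras replicate 2 (open squares). The median over these 27 genes moves from -0.48 to -0.14 without replicate 1 and to -0.73 without replicate 2.

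Levels were compared between genes only per kilobase of transcript, with the length of the longest protein-coding GENCODE M21 transcript. Cxcl15 ranked first in mean CPM per kilobase, at 457 and 885 in the K-Ras samples and 705 and 644 in the K-Ras Mll4-/- samples. Ccl6 followed, at 567 and 88.4 in K-Ras and 308 and 107 in K-Ras Mll4-/- samples, and Cxcl12 came next, at 232 and 173 against 197 and 133. The ranges of Cxcl15 and Ccl6 overlapped, as did those of Ccl6 and Cxcl12, so the order of neighbours is not separated by the spread. Cxcl17 and Ccl3 followed, with Cxcl2, Cxcl16, Cxcl14, Ccl5 and Ccl17 completing the first 10. Of the CPM of all members in a sample, not adjusted for length, Cxcl15 and Cxcl12 together took 64.1% and 87.1% in the K-Ras samples and 78.4% and 83.6% in the K-Ras Mll4-/- samples. Ccl6 took 23.0% and 3.88% in K-Ras and 13.3% and 6.11% in K-Ras Mll4-/- samples.

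The CXC ligands with a glutamate-leucine-arginine motif comprise the Cxcr2 ligands Cxcl1, Cxcl2, Cxcl3 and Cxcl5, which recruit neutrophils during inflammation, and Cxcl15. The latter, also called lungkine, is a product of lung epithelium. All 5 were tested, 4 had a negative log2 fold change and the group's median was -0.79. Cxcl2 was at 85.4 and 22.9 CPM in K-Ras and 25.8 and 10.0 CPM in K-Ras Mll4-/- samples. The high value belonged to K-Ras sample 1, and the groups overlapped. Its log2 fold change of -1.60 (edgeR adjusted p = 0.308, SE 0.79) became -0.36 without that sample. Cxcl5 was at 5.30 and 2.71 CPM in K-Ras and 2.06 and 0.962 CPM in K-Ras Mll4-/- samples. These groups did not overlap, and the log2 fold change was -1.41 (edgeR adjusted p = 0.246, SE 0.57), or -0.85 without K-Ras sample 1. Cxcl3 also kept its groups apart, at 3.83 and 2.46 against 1.90 and 1.74 CPM, while Cxcl1 did not, at 13.8 and 5.76 against 10.6 and 3.48 CPM. Cxcl2 and Cxcl3 share sequence, with 3.37% and 6.31% of the 50-base stretches of their transcripts found in the other, so a small part of their reads cannot be assigned.

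Cxcl15 had the log2 fold change nearest 0 of the 5. It was at 971 and 1882 CPM in K-Ras and 1499 and 1370 CPM in K-Ras Mll4-/- samples. Both K-Ras Mll4-/- samples lay between the K-Ras samples, with a log2 fold change of 0.01 (edgeR adjusted p = 0.992, SE 0.37) that was -0.03 when libraries were scaled by total counts and -0.04 by upper quartile. The summed alveolar type 2 markers were lowest in K-Ras sample 1, at 14052 CPM, and highest in K-Ras sample 2, at 23927 CPM. They were at 20431 and 21365 CPM in the K-Ras Mll4-/- samples. Single markers differed, and only Lamp3 and Abca3 were both lowest in K-Ras sample 1 and highest in K-Ras sample 2. Sftpb was at 2871 and 5629 CPM in K-Ras and 7045 and 10342 CPM in K-Ras Mll4-/- samples. Sftpc, Sftpa1 and Napsa were lowest in K-Ras Mll4-/- sample 2. The part of alveolar type 2 content in the Cxcl15 values was not tested.

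Among the interferon-induced ligands of Cxcr3, Cxcl9 had the largest positive log2 fold change of the tested CXC genes. It was at 1.73 and 9.44 CPM in K-Ras and 15.3 and 17.2 CPM in K-Ras Mll4-/- samples. Both K-Ras Mll4-/- samples were above both K-Ras samples, and K-Ras sample 1 held 0.184 of the level of K-Ras sample 2. The log2 fold change of 1.54 (edgeR adjusted p = 0.325, SE 0.79) lay between 0.79 (without K-Ras sample 1) and 3.21 (without K-Ras sample 2). Cxcl10, an interferon-induced gene of the same chromosome 5 cluster, was at 1.18 and 2.27 against 2.21 and 1.80 CPM, so its groups overlapped (log2 fold change 0.21). Cxcl11, annotated by RefSeq as a transcribed pseudogene, had 6 and 0 reads in K-Ras and 1 and 7 in K-Ras Mll4-/- samples and did not pass the filter. Cxcr3, the receptor they share, was at 4.09 and 3.79 CPM in K-Ras and 4.19 and 4.81 CPM in K-Ras Mll4-/- samples (log2 fold change 0.19). Cd8a was higher in both K-Ras Mll4-/- samples, at 11.5 and 13.2 CPM against 6.93 and 4.62 CPM, with a log2 fold change of 1.10 (edgeR adjusted p = 0.170), but the summed T cell markers overlapped, at 75.9 and 37.0 against 67.4 and 67.3 CPM. The part of T cell content in the Cxcl9 values was not tested.

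The other CXC ligands are mainly made by resident cells. Cxcl12, the stromal and endothelial ligand of Cxcr4, was at 1307 and 975 CPM in K-Ras and 1107 and 748 CPM in K-Ras Mll4-/- samples. The groups overlapped, with a log2 fold change of -0.30 (edgeR adjusted p = 0.575, SE 0.29). Cxcr4 was at 118 and 65.1 CPM against 65.9 and 57.9 CPM, with only K-Ras sample 1 standing out. Ackr3, an atypical receptor that scavenges Cxcl12, was at 153 and 129.5 CPM in K-Ras and 105 and 79.4 CPM in K-Ras Mll4-/- samples, without overlap and with a log2 fold change of -0.61 (edgeR adjusted p = 0.197). The 6 blood endothelial markers summed to 4059 and 4153 CPM in K-Ras and 3046 and 2360 CPM in K-Ras Mll4-/- samples, a difference whose part in the Cxcl12 and Ackr3 values was not tested. In these bulk samples, fewer cells of a type and less RNA per cell cannot be told apart.

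Cxcl14, a ligand made by epithelial cells and fibroblasts, was at 39.5 and 24.7 CPM in K-Ras and 14.7 and 16.9 CPM in K-Ras Mll4-/- samples. The groups did not overlap, and both K-Ras Mll4-/- values were below the lower K-Ras value. The log2 fold change was -1.02 (edgeR adjusted p = 0.177, SE 0.27), it was -0.64 without K-Ras sample 1 and -1.33 without K-Ras sample 2, and DESeq2 called it (adjusted p = 0.0292). The 6 fibroblast markers summed to 2464 and 1121 CPM in K-Ras and 837 and 850 CPM in K-Ras Mll4-/- samples, and 5 of the 6 were lower without overlap, against the 28.5% of all genes. The part of fibroblast content in the Cxcl14 difference was not tested.

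Cxcl16, a transmembrane ligand of Cxcr6 released by the protease Adam10, was at 49.7 and 35.9 CPM in K-Ras and 35.0 and 36.7 CPM in K-Ras Mll4-/- samples, with only K-Ras sample 1 apart. Its log2 fold change of -0.26 became 0.00 without that sample. Some 19.0% of the 50-base stretches of its transcript occur in Zmynd15, an overlapping gene, so part of its reads may be counted as ambiguous. Adam10 was at 204 and 174 CPM in K-Ras and 261 and 326 CPM in K-Ras Mll4-/- samples, with a log2 fold change of 0.63 (edgeR adjusted p = 0.185). Cxcl17, a mucosal chemokine, was at 23.3 and 85.4 CPM in K-Ras and 58.7 and 89.2 CPM in K-Ras Mll4-/- samples, so the low value of K-Ras sample 1 set its log2 fold change of 0.44, which was -0.20 without it. Cxcl13, the B cell attractant of lymphoid follicles, was near the floor at 1.05 and 0.360 CPM in K-Ras and 0.267 and 0.341 CPM in K-Ras Mll4-/- samples. It passed the filter through its K-Ras reads, with 7 and 11 reads in the K-Ras Mll4-/- samples, and its log2 fold change was -1.18 (edgeR adjusted p = 0.376). Without K-Ras sample 1 it was -0.23. The B cell markers summed to 55.3 and 39.2 CPM against 46.6 and 48.8 CPM.

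Of the monocyte-attracting ligands of Ccr2, only Ccl2 passed the filter. Ccl2 was at 2.98 and 1.49 CPM in K-Ras (91 and 54 reads) and 0.419 and 0.558 CPM in K-Ras Mll4-/- samples (11 and 18 reads). The groups did not overlap, and the lower K-Ras value was above the higher K-Ras Mll4-/- value by more than 2-fold. Its log2 fold change of -2.17 (edgeR adjusted p = 0.166, SE 0.53) had the smallest p of the members, lay between -2.60 and -1.59 with each sample left out in turn, and was called by DESeq2 (adjusted p = 0.0404). The neighbouring genes Ccl7, Ccl8 and Ccl12 had few reads. Ccl7 had 21 and 1 reads in K-Ras and 2 and 0 in K-Ras Mll4-/- samples, and Ccl8 had 8 and 4 against 0 in each. Ccl12 had 1 to 3 reads per sample. Ccr2 was at 59.2 and 32.3 CPM in K-Ras and 28.6 and 24.6 CPM in K-Ras Mll4-/- samples, again without overlap (log2 fold change -0.78, edgeR adjusted p = 0.256).

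The macrophage inflammatory CC ligands are encoded on chromosome 11. Ccl3, which recruits monocytes and neutrophils, was at 57.3 and 18.4 CPM in K-Ras and 15.5 and 12.2 CPM in K-Ras Mll4-/- samples. The groups did not overlap, but K-Ras sample 1 was 3.11-fold above sample 2. Its log2 fold change of -1.45 (edgeR adjusted p = 0.244, SE 0.58) was -0.41 without K-Ras sample 1. Ccl4, which draws monocytes and T cells, was at 7.95 and 8.69 CPM in K-Ras and 4.23 and 5.43 CPM in K-Ras Mll4-/- samples. Here the K-Ras samples were close to each other, and the log2 fold change of -0.78 (edgeR adjusted p = 0.199, SE 0.25) stayed between -0.98 and -0.61 whichever sample was left out. Ccl5, a product of T cells and NK cells among others, was at 6.51 and 6.42 against 5.60 and 8.07 CPM, with a log2 fold change of 0.08 that turned to -0.21 without K-Ras Mll4-/- sample 2.

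Ccl6 and Ccl9, a pair of rodent ligands of Ccr1 made by myeloid cells, differed widely within groups. Ccl6 was at 816 and 127 CPM in K-Ras and 443 and 155 CPM in K-Ras Mll4-/- samples. The samples numbered 1 were high and those numbered 2 low in each group. Its log2 fold change of -0.66 (edgeR adjusted p = 0.726, SE 0.99) turned to 1.24 without K-Ras sample 1. Ccl9 was at 74.4 and 17.3 CPM in K-Ras and 23.2 and 8.07 CPM in K-Ras Mll4-/- samples, with a log2 fold change of -1.55 (edgeR adjusted p = 0.354, SE 0.87) that was -0.14 without K-Ras sample 1. Ccr1 was at 40.7 and 17.9 against 29.1 and 11.5 CPM, so this receptor was also high in the samples numbered 1.

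The pattern of Ccl6 was shared by 5 other ligands, a group chosen after the values were seen. Ccl6, Ccl9, Ccl17, Ccl22, Cxcl1 and Cxcl2 were each more than 2-fold higher in sample 1 than in sample 2 of both groups, 6 of 27 members against 1.49% of all genes. Ccl17 and Ccl22, ligands of Ccr4 made by dendritic cells and macrophages, are both encoded on chromosome 8. Ccl17 was at 14.5 and 2.19 CPM in K-Ras and 6.59 and 1.80 CPM in K-Ras Mll4-/- samples. Ccl22 was at 20.7 and 2.19 CPM in K-Ras and 9.33 and 4.56 CPM in K-Ras Mll4-/- samples. Their log2 fold changes of -0.996 and -0.72 (edgeR adjusted p = 0.617 and 0.722) turned to 0.93 and 1.67 without K-Ras sample 1.

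Alveolar macrophage markers moved with these 6 ligands, and other macrophage markers did so in part. The 5 alveolar macrophage markers summed to 6042 and 434 CPM in K-Ras and 3314 and 732 CPM in K-Ras Mll4-/- samples. Chil3 made up most of each sum, at 5697 and 381 against 3120 and 646 CPM. Of the 5, 4 were highest in K-Ras sample 1, while Ear2 was highest in K-Ras Mll4-/- sample 1, at 51.8 and 19.4 against 116 and 55.6 CPM. Chil3, a secreted chitinase-like protein of alveolar macrophages, was 15.0-fold higher in sample 1 than sample 2 of the K-Ras group and 4.83-fold higher in the K-Ras Mll4-/- group, against 6.41-fold and 2.86-fold for Ccl6. The scavenger receptor gene Marco was at 211 and 9.19 CPM in K-Ras and 14.6 and 3.38 CPM in K-Ras Mll4-/- samples. The 8 monocyte and macrophage markers summed to 733 and 232 CPM against 752 and 311 CPM, and 2 of the 8 were highest in K-Ras sample 1. Mrc1 and Cd68 made up most of that sum. The K-Ras ratios of sample 1 to sample 2 were 3.56, 4.92, 2.96 and 1.89 for Mrc1, Cd68, Adgre1 and Csf1r. They were 1.15, 1.28, 0.998 and 1.00 for C1qa, C1qb, C1qc and Ly6c2 (genes grouped after their values were seen). The same ratios in K-Ras Mll4-/- samples were 2.91, 2.25, 2.86 and 2.15 for the first group. For C1qa, C1qb, C1qc and Ly6c2 they were 2.22, 2.17, 1.93 and 1.12, so there the C1q genes were also higher in sample 1. The 6 dendritic cell markers summed to 367 and 207 CPM against 288 and 164 CPM, and 2 of them were highest in K-Ras sample 1. Single dendritic cell markers differed, and 2 of the 6 were lower without overlap, against 28.5% of all genes. These were Clec9a, at 52.4 and 69.4 against 28.3 and 24.7 CPM, and Zbtb46, at 47.2 and 47.6 against 27.8 and 23.5 CPM. No marker of these 3 lists was at 0 in any sample. The 4 leukocyte markers, Ptprc among them, summed to 671 and 310 CPM in K-Ras and 715 and 417 CPM in K-Ras Mll4-/- samples. The part of macrophage content in the chemokine values was not tested.

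**Figure D3:**
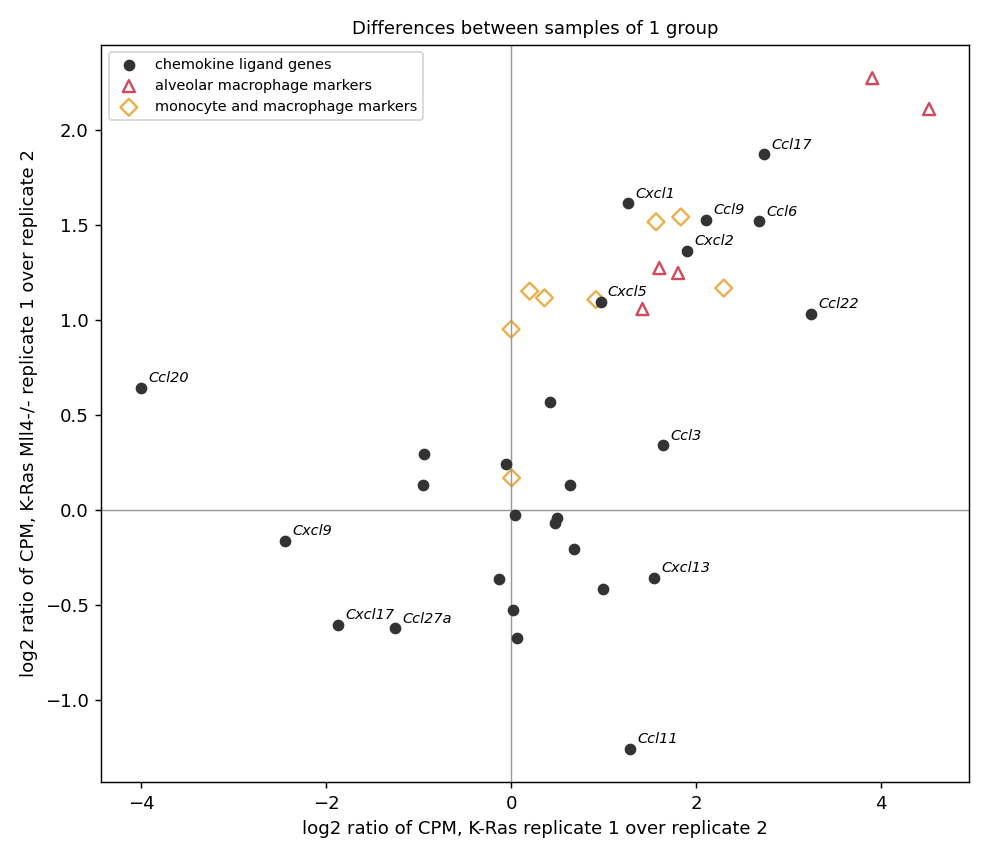
Log2 ratio of CPM between the samples of 1 group, K-Ras on the x axis and K-Ras Mll4-/- on the y axis, for 27 chemokine ligand genes (filled points, named where a ratio is beyond 1) and for macrophage markers (open symbols). Ccl6, Ccl9, Ccl17, Ccl22, Cxcl1 and Cxcl2, chosen for ratios above 2-fold in both groups, lie at the upper right by that choice. All 5 alveolar macrophage markers lie there too, as do Mrc1, Cd68 and Adgre1 of the monocyte and macrophage list.

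The remaining CC ligands were low or at 0. Ccl20, which draws Ccr6-bearing cells to mucosa, was at 0.0327 and 0.526 CPM in K-Ras (1 and 19 reads) and 1.60 and 1.02 CPM in K-Ras Mll4-/- samples (42 and 33 reads). It passed the filter through its K-Ras Mll4-/- reads, and its log2 fold change of 2.17 (edgeR adjusted p = 0.299, SE 1.04) was 1.31 without K-Ras sample 1, which held 1 read, and 5.14 without K-Ras sample 2. Ccr6 was at 4.87 and 1.88 against 3.24 and 2.70 CPM. Ccl1, a ligand of Ccr8, was a little higher in both K-Ras Mll4-/- samples, at 0.724 and 0.745 CPM against 0.621 and 0.443 CPM. Ccl11, the eosinophil attractant eotaxin, was at 2.09 and 0.858 against 0.533 and 1.27 CPM. The mucosal ligands Ccl25 and Ccl27a lay between 1.14 and 2.74 CPM in all samples, with overlapping groups, and 66.4% of the 50-base stretches of the Ccl27a transcript occur in other genes. Ccl24 had 1 to 3 reads per sample.

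No read was assigned in any sample to 7 members, Ccl19, Ccl21a, Ccl21b, Ccl21c, Ccl26, Ccl27b and Ccl28. For several of these the count is no measure of expression. Reads aligned to more than 1 place were tallied apart, and the transcripts of Ccl19, Ccl21a, Ccl21b and Ccl27b share 59.1%, 71.6%, 100% and 98.1% of their 50-base stretches with other genes. Ccl21c could not be checked in this way. Ccl26 shares 0% and Ccl28 0.271%. Ccr7, the receptor for Ccl19 and Ccl21, was at 20.8 and 15.1 CPM in K-Ras and 14.1 and 10.8 CPM in K-Ras Mll4-/- samples.

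Of the XC and CX3C ligands, Xcl1, a lymphocyte product that draws cross-presenting dendritic cells, was at 1.504 and 1.47 CPM in K-Ras and 2.28 and 2.33 CPM in K-Ras Mll4-/- samples. The samples of each group were close and the groups did not overlap, with a log2 fold change of 0.63 (edgeR adjusted p = 0.319, SE 0.32) and 46 to 75 reads per sample. Some 10.8% of its 50-base stretches occur in another gene. Its receptor Xcr1 was at 1.86 and 0.747 against 1.79 and 1.37 CPM. Cx3cl1, the transmembrane ligand fractalkine of endothelium and epithelium, was at 39.1 and 40.8 CPM in K-Ras and 36.2 and 30.6 CPM in K-Ras Mll4-/- samples. Its groups did not overlap, but the log2 fold change was only -0.26 (edgeR adjusted p = 0.352, SE 0.15).

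The receptors were examined as a list of 18, of which 17 were tested and 0 were called by edgeR (1 at an unadjusted p under 0.05, against 21.8% of all genes, and 1 by DESeq2, against 10.0%), 10 with a negative and 7 with a positive log2 fold change (median -0.39). K-Ras sample 1 was highest for 13 of the 18. Cxcr2, the receptor of Cxcl1, Cxcl2, Cxcl3 and Cxcl5, had the reverse direction to its ligands. It was at 10.5 and 7.14 CPM in K-Ras and 21.2 and 19.4 CPM in K-Ras Mll4-/- samples, without overlap, with a log2 fold change of 1.21 (edgeR adjusted p = 0.153, SE 0.25). Cxcr1 was at 25.0 and 3.71 against 7.54 and 2.73 CPM, and the eosinophil receptor Ccr3 at 4.06 and 0.194 against 0.609 and 0.310 CPM, each set by K-Ras sample 1. The 5 neutrophil markers were all lower without overlap, against the 28.5% of all genes. They summed to 218 and 81.7 CPM in K-Ras and 57.0 and 50.5 CPM in K-Ras Mll4-/- samples, and S100a9 was at 79.2 and 23.3 against 18.0 and 19.7 CPM. The part of neutrophil content in the Cxcr2 ligand values was not tested.

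Atypical receptors, which bind chemokines without classical signalling, were 5 of 5 lower in fold change (median -0.74), and edgeR called 0 (2 at an unadjusted p under 0.05, against 21.8% of all genes, and 1 by DESeq2, against 10.0%). Ackr1, the chemokine receptor of venular endothelium and red cells, was at 17.3 and 2.44 CPM in K-Ras and 1.03 and 0.838 CPM in K-Ras Mll4-/- samples, with a log2 fold change of -3.40 (edgeR adjusted p = 0.191, SE 1.04) that was -1.38 without K-Ras sample 1. Ackr2, a scavenger of inflammatory CC ligands, was at 91.6 and 149.95 against 79.3 and 65.1 CPM, and Ccrl2 at 78.6 and 34.4 against 34.9 and 20.7 CPM. The platelet chemokines Pf4 and Ppbp, outside the symbol rule, had overlapping groups, at 6.80 and 3.15 against 3.28 and 4.53 CPM for Pf4 and 20.2 and 9.55 against 10.3 and 15.2 CPM for Ppbp.

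Genes of the NF-kappaB pathway and cytokines that induce chemokines had negative log2 fold changes in most cases, and edgeR called 0 of them. All 10 NF-kappaB feedback genes, transcripts that NF-kappaB induces to limit or sustain itself, had negative log2 fold changes (median -0.52), and 9 of them were lower without overlap, against 28.5% of all genes. An unadjusted p under 0.05 was reached by 4 of the 10, against 21.8%, and DESeq2 called 3, against 10.0%. K-Ras sample 1 was highest for 9 of the 10. Nfkbiz was at 137.5 and 108 CPM in K-Ras and 58.5 and 43.0 CPM in K-Ras Mll4-/- samples, with a log2 fold change of -1.28 (edgeR adjusted p = 0.147, SE 0.22). Nfkbia, the inhibitor IkappaB alpha, was at 237 and 256 against 128 and 93.5 CPM, with a log2 fold change of -1.16 (edgeR adjusted p = 0.147), and Tnfaip3, encoding the inhibitor A20, at 171 and 119 against 85.4 and 70.0 CPM. These 3 genes, the furthest from 0 in the list, had ratios of K-Ras sample 1 to sample 2 of 1.27, 0.928 and 1.43. The 6 ligands above were chosen for their high ratios, so a contrast with them would follow from the choice. Without K-Ras sample 1 the log2 fold changes of the 3 genes were -1.09, -1.21 and -0.61. Those of all other genes in the list then lay closer to 0, from -0.40 (Birc3) to -0.06 (Nfkb2).

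Of 14 cytokines that induce chemokines, 13 were tested, 9 had a negative log2 fold change and the median was -0.96, with 4 at an unadjusted p under 0.05 (21.8% of all genes) and 3 called by DESeq2 (10.0% of all genes). Il4, 1 of these 4, was near the floor, at 0.556 and 0.387 CPM in K-Ras and 0.114 and 0.124 CPM in K-Ras Mll4-/- samples (log2 fold change -1.94, edgeR adjusted p = 0.187). It passed the filter through its K-Ras reads, which favours a negative fold change, and DESeq2 gave it no adjusted p. Il1b was at 117 and 51.8 CPM in K-Ras and 35.1 and 16.4 CPM in K-Ras Mll4-/- samples, with a log2 fold change of -1.71 (edgeR adjusted p = 0.201, SE 0.56) that was -1.01 without K-Ras sample 1. Il6 was at 4.25 and 4.46 against 1.03 and 1.24 CPM, with a log2 fold change of -1.93 (edgeR adjusted p = 0.145, SE 0.32) that was -1.96 without K-Ras sample 1. Tnf and Il33 were picked after their values were seen. Tnf overlapped, at 17.1 and 4.90 against 6.97 and 4.34 CPM. Il33, an alarmin of epithelium and stroma, was higher in both K-Ras Mll4-/- samples, at 106 and 124 CPM in K-Ras and 203 and 175 CPM in K-Ras Mll4-/- samples (log2 fold change 0.72, edgeR adjusted p = 0.157).

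**Figure D4:**
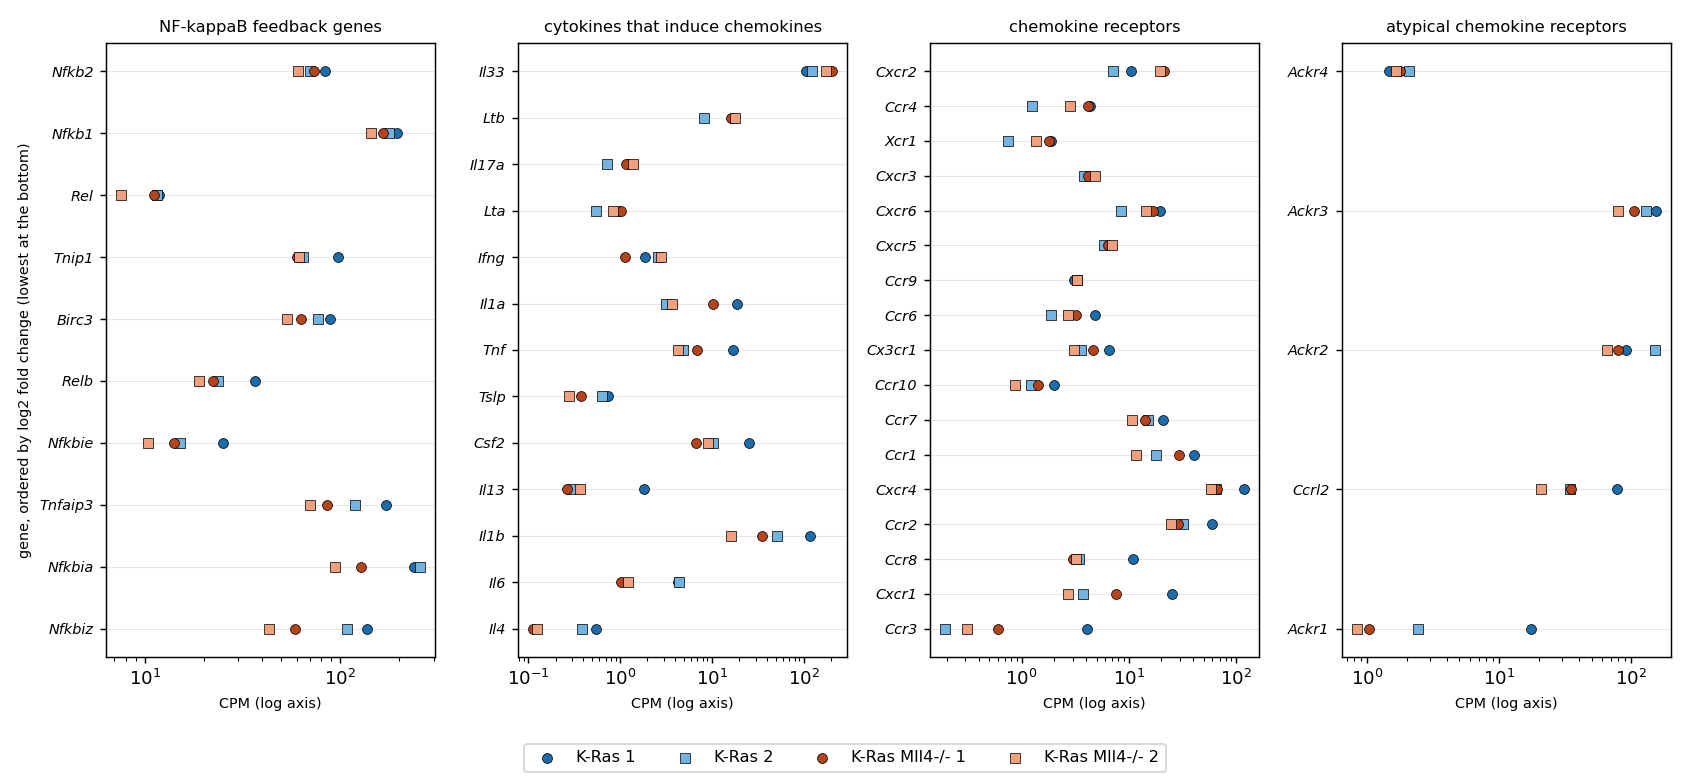
CPM per sample on log axes for the tested genes of 4 lists: NF-kappaB feedback genes, cytokines that induce chemokines, chemokine receptors and atypical chemokine receptors. For 9 of 10 NF-kappaB feedback genes both K-Ras Mll4-/- samples (dark and light orange) lie below both K-Ras samples (blue), while most receptors overlap.

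Other marker lists are given for reference, as the range over K-Ras then over K-Ras Mll4-/- samples. Summed CPM was 12.6 to 13.6 against 14.2 to 16.5 for NK cells and 40.1 to 71.2 against 30.5 to 44.2 for platelets. It was 293 to 361 against 175 to 215 for lymphatic endothelium and 179 to 248 against 152 to 182 for pericytes and smooth muscle. Of the 5 NK cell markers, 4 had a negative log2 fold change, against 51.2% of all genes. Only Nkg7 was higher, at 3.73 and 4.12 CPM in K-Ras and 7.05 and 7.48 CPM in K-Ras Mll4-/- samples. The club cell markers were at 647 to 3430 against 539 to 702 and the ciliated cell markers at 88.3 to 543 against 48.5 to 53.0, the high values belonging to K-Ras sample 2. The mesothelial list was at 14.8 to 18.3 against 121 to 222, almost all of it Msln, so this sum describes Msln and not the list. Of its 4 genes 2 were tested, and Lrrn4, the other one, had overlapping groups and a log2 fold change of -0.40. The proteases Adam17 and Dpp4, which shed or trim chemokines, were at 108 and 93.5 against 124 and 114 CPM and at 80.1 and 143 against 82.3 and 60.9 CPM.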

How the data were processed

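RNA sequencing of 4 CD45-depleted mouse lung tumour samples was re-analysed. The authors deposited raw read counts per gene symbol, 1 file per sample. The submitters' processing notes name CASAVA 1.4, STAR, HTSeq and the build mm9; roles, annotation and strand setting are not given in the sources used here. Without a stated strand setting, reads of overlapping antisense genes cannot be told apart. The 5 closing HTSeq tallies were kept out of library sizes; together they made up 60.1% to 65.6% of all entries tallied, reads aligned to more than 1 place included.

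Counts were fitted with edgeR 4.0.16 (R 4.3.3): filterByExpr (minimum count 10), TMM scaling, robust quasi-likelihood test of K-Ras Mll4-/- minus K-Ras over all 16001 genes tested, Benjamini-Hochberg adjustment, called at an adjusted p under 0.05. SE is the log2 fold change divided by the square root of F. CPM is TMM-normalised. Alternatives used DESeq2 1.42.0, limma 3.58.1 (voom), other scalings and filters, the replicate block, GC and length offsets (mgcv 1.9.3; 24014 of 24391 genes with a length), and leaving out each sample. A gene that was not called is not thereby shown to be unchanged.

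Members, gene lists and tests were chosen with earlier results of these data known. Values per sample are given for the 10 members highest per kilobase, those with an unadjusted p under 0.05, and those whose groups do not overlap and differ by a log2 fold change of 1 or more; other members were named to account for all 39, and of each other list the 3 genes furthest from 0, and receptors of named ligands, could be named; not all of these are. Motifs were searched on both strands of RefSeq promoters (GRCm38.p6), matched by symbol. A listed receptor is not reported here.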

Additional observations from a re-analysis of the deposited data

How the results depend on the processing

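All alternatives were planned. Against 6 genes called in all, no count filter gave 44, DESeq2 1601, the edgeR likelihood ratio test 1503 and limma-voom 0 (3159 at an unadjusted p under 0.05), and leaving out single samples gave 0 to 528, the highest without K-Ras replicate 1. Against 0 chemokine ligand genes (3 at an unadjusted p under 0.05), DESeq2 and the likelihood ratio test each gave 2, Ccl2 and Cxcl14, and leaving out single samples gave 0 to 0. Among the 16 members with values by rule, 223 alternative values kept their sign and side of the threshold, 11 reversed and 5 became called. Cxcl15 reversed to -0.0290 with total counts, -0.0443 with the upper quartile and -0.15 with GC and length offsets. Leaving out single samples gave -0.39 to 0.55 for Cxcl15, -2.21 to 0.93 for Ccl17, -0.21 to 0.32 for Ccl5, -1.60 to 1.24 for Ccl6, -0.48 to 0.0003 for Cxcl16 and -0.20 to 1.65 for Cxcl17. The cause was not tested.

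The labels number the samples 1 and 2 in both groups without saying what a number shares, and with 2 pairs the numbers were not taken as pairs. Same-numbered samples deviated together with r = 0.213 across 16001 genes, which are not independent replicates. With the replicate block 217 genes and 0 of 27 members were called, and 8 members had an unadjusted p under 0.05, against 23.4% of all genes. With GC and length offsets and the replicate block together 370 genes were called (2.31%), among them 2 members, Ccl9 and Cxcl2, and Cxcl15 was at -0.0605. Counts limit Ccl8, Ccl12, Ccl24 and Cxcl11, with fewer than 10 reads in every sample, and Ccl7, Cxcl13 and Ccl20, with fewer than 10 in at least 1.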
